A study of Mus musculus with 20 samples.

Results

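Livers of obese mice given rosuvastatin together with geranylgeraniol (GGOH) were compared with livers of obese mice given rosuvastatin alone, to ask what GGOH changes in a liver already under a statin. The comparison took every library that the titles place in those groups, 5 with the combination and 5 with rosuvastatin, which made 10 of the 20 libraries of the study. All mice were wild type with diet-induced obesity (DIO in the titles), and RNA was taken from liver. The other 10 libraries, 5 from mice given vehicle and 5 from mice given GGOH alone, served to estimate the spread and to ask whether GGOH did the same without the statin. The labels give no diet composition, dose, route, length of treatment, sex, age or time of sampling. They do not say that each library came from a separate animal, so the p-values measure only the spread between these libraries, which may be technical.

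Statins block an early step of the mevalonate pathway, which starts from acetyl-CoA. That pathway feeds cholesterol and also the isoprenoids farnesyl diphosphate and geranylgeranyl diphosphate, which are attached to proteins such as small GTPases. Cells convert GGOH to geranylgeranyl diphosphate, so GGOH can supply the lipid below the blocked step. When sterols run low in the liver, the transcription factor SREBP2 raises the genes of cholesterol synthesis and uptake.

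Depth was similar across most libraries. Total estimated counts ran from 14735780 to 16961665 with rosuvastatin and from 8548120 to 17864456 with the combination, whose lowest value was library 3. Mitochondrial transcripts took 8.66 to 16.4% of counts with rosuvastatin and 8.06 to 16.7% in the vehicle and GGOH libraries. They took 17.1, 27.9, 29.2, 13.4 and 9.12% in combination libraries 1 to 5, so that libraries 2 and 3 stood apart. The same 2 libraries lay at one end of the leading principal component of the 10 libraries, which held 31.9% of their variance, and rosuvastatin library 3 lay at the end of the second, which held 18.7%. The median Spearman correlation between libraries over all genes tested, which share genes and annotation, was 0.964 within the groups and 0.970 between them. The 8 hepatocyte markers, among them Alb and Apob, summed to 69044 to 75994 CPM, which are counts scaled to library size, with rosuvastatin and 52547 to 89473 CPM with the combination. In bulk tissue, fewer cells of a type and less RNA per cell cannot be told apart.

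Few genes separated the groups. By the edgeR quasi-likelihood test with Benjamini-Hochberg adjustment, 0 of 12789 genes tested (0%) passed an adjusted p of 0.05, and the smallest adjusted p was 0.0714, for Cyp2b10. At an unadjusted p under 0.05 there were 216 genes (1.69%), of which 131 (1.02%) were higher with the combination and 85 (0.665%) lower. A uniform spread of p-values would put 639 genes there. That count was 353 without rosuvastatin library 2, and 140, 116, 337 and 419 without combination library 2, 3, 4 or 5. The 5 values of a group did not overlap those of the other in 34 genes (0.266%), 11 of them higher with the combination and 23 lower. DESeq2, limma on log2(TPM + 1), where TPM is a level scaled for transcript length and library size, and edgeR without a low-count filter each called 1 gene, Cyp2b10. For every other gene named here the edgeR adjusted p was 1.00 after rounding, so the values below are descriptions of these libraries unless a test is named.

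The smallest p-values of all genes were those of Cyp2b10 and Cyp2c29, cytochrome P450 genes that respond to the nuclear receptor CAR. Cyp2b10, the standard readout of CAR in mouse liver, lies on chromosome 7 from 25897620 to 25926624 (GRCm38). It stood at 0.702, 0.476, 0.227, 0.639 and 1.72 CPM in rosuvastatin libraries 1 to 5 and at 4.03, 9.02, 5.15, 8.07 and 3.92 CPM in combination libraries 1 to 5. Each combination library was above each rosuvastatin library. The fitted log2 fold change was 2.98 ± 0.50 (SE), with an edgeR Benjamini-Hochberg adjusted p of 0.0714, which missed the threshold. Over 30 other settings the log2 fold change ran from 1.5 to 3.54, and the adjusted p ran from 7.99e-06 (DESeq2) to 0.784 (edgeR with combination libraries 2 and 3 left out together). Leaving out vehicle library 4 or rosuvastatin library 5 gave edgeR adjusted p-values of 0.0301 and 0.0140, past the threshold.

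Cyp2b10 was also higher with GGOH in the absence of the statin, in libraries outside the groups of the main comparison. Those libraries did enter the estimate of the spread that the main test used. Its CPM values were 0.81, 0.47, 1.24, 0.09 and 0.95 in vehicle libraries 1 to 5 and 0.98, 2.15, 3.86, 3.95 and 1.49 in GGOH libraries 1 to 5. GGOH library 1 overlapped the vehicle group. The log2 fold change of GGOH against vehicle was 1.76 ± 0.51 (SE, edgeR unadjusted p = 0.00227, adjusted p = 1.00). The difference between the response under the statin and the response without it was 1.22 ± 0.71 (SE, edgeR interaction, unadjusted p = 0.0976, adjusted p = 0.999), so the 2 responses were not shown to differ in size. Over the 4 groups Cyp2b10 averaged 0.41 ± 0.32, 0.55 ± 0.38, 1.49 ± 0.69 and 3.46 ± 1.35 TPM (SD, n = 5) with vehicle, rosuvastatin, GGOH and the combination.

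Cyp2c29, another P450 that CAR activators induce, showed a smaller difference at a much higher level. It lies on chromosome 19 from 39269405 to 39330713. Rosuvastatin libraries 1 to 5 had 373, 413, 280, 435 and 266 CPM, and combination libraries 1 to 5 had 776, 478, 651, 746 and 581 CPM. The groups did not overlap, with the lowest combination library (2) just above the highest rosuvastatin library (4). Its log2 fold change of 0.87 ± 0.22 (SE) had an edgeR unadjusted p of 0.000759, the second smallest of all genes, and the 30 other settings gave 0.77 to 0.99. GGOH against vehicle gave 0.62 ± 0.22 for the same gene. Per transcript length, Cyp2c29 averaged 388 ± 69.8 TPM (SD, n = 5) with the combination, against 3.46 TPM for Cyp2b10, so the fold change of Cyp2b10 was measured on a rare transcript.

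**Figure D1:**
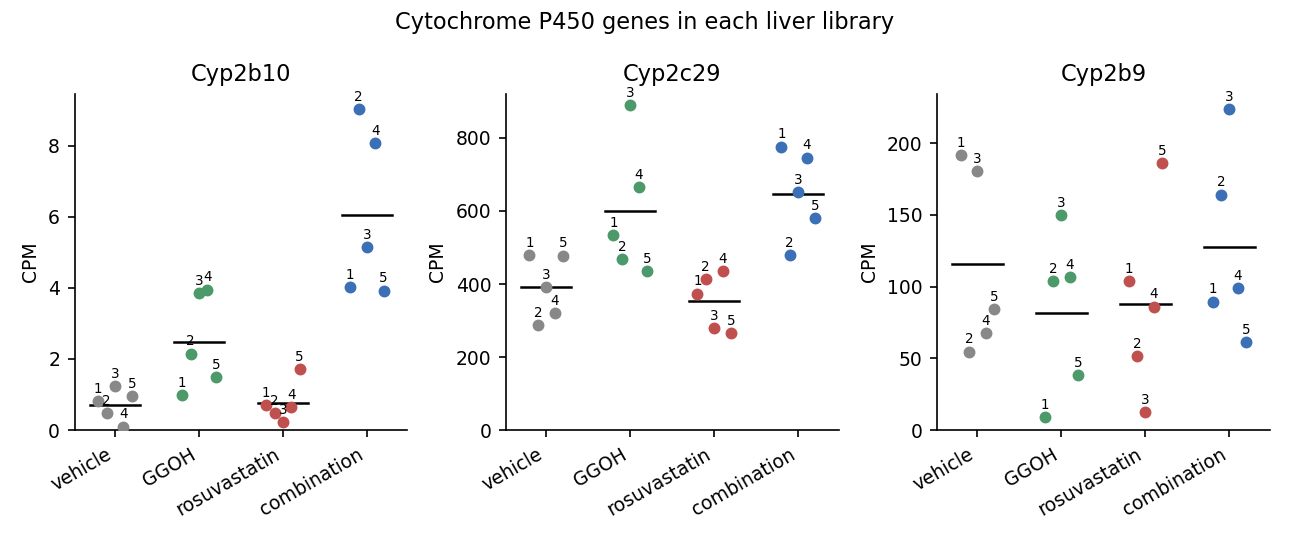
CPM (vertical axis, linear, from 0) of Cyp2b10, Cyp2c29 and Cyp2b9 in each of the 20 libraries, by treatment group; points are libraries with their replicate numbers and bars are group means. For Cyp2b10 the combination libraries sit between 3.92 and 9.02 CPM and the rosuvastatin libraries between 0.227 and 1.72, while the groups overlap for Cyp2b9.

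The neighbours of Cyp2b10 on chromosome 7 did not share its pattern. Cyp2b9, which lies from 26173411 to 26210661, had 104, 51.3, 12.4, 85.9 and 186 CPM in rosuvastatin libraries 1 to 5 and 89.4, 164, 224, 98.7 and 61.1 CPM in combination libraries 1 to 5. The groups overlapped over most of their range, with a log2 fold change of 0.53 ± 0.61 (SE), which was -0.08 with combination libraries 2 and 3 left out. Cyp2b13 stood at 12.1 CPM in rosuvastatin library 5 and at no more than 0.871 CPM in the other 4, against 0.192 to 7.05 CPM with the combination. Its log2 fold change was -0.27 ± 1.09 (SE), and 2.14 without rosuvastatin library 5. Reads are divided by estimation among these close paralogs, so the copy they came from is uncertain.

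Beyond these members the list of 28 genes tied to CAR and to PXR, the related receptor for drugs and bile acids, moved little. Of its 26 genes tested, 20 had a higher fitted value and 6 a lower one, with a median log2 fold change of 0.16, beside a median of 0.01 and 47.4% of genes lower over all 12789 genes. The 2 genes of the list at an unadjusted p under 0.05 were Cyp2b10 and Cyp2c29, both higher, against 1.02% of all genes. The list median was 0.01 with combination libraries 2 and 3 left out and 0.31 without rosuvastatin library 2. Cyp3a11, the usual PXR readout, had 2872 ± 671 CPM with rosuvastatin and 2984 ± 714 CPM with the combination (SD, n = 5), a log2 fold change of 0.05 ± 0.27 (SE) that was -0.08 without combination library 5. Nr1i3, which encodes CAR itself, was at 0.23 ± 0.28 (SE), with 242 ± 94.4 and 283 ± 80.3 CPM (SD, n = 5). The glutathione transferase Gsta2 was at 0.77 ± 0.48 (SE) and Cyp2c55 at 0.53 ± 0.31 (SE).

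The genes of cholesterol synthesis were lower with the combination as a group, without any member passing the test. All 18 genes reported from acetyl-CoA to cholesterol had a lower fitted value, with a median log2 fold change of -0.82, against 47.4% of all genes tested with a lower value. Among the 18, 2, namely Nsdhl and Dhcr7, had an edgeR unadjusted p under 0.05 with a lower value, against 0.665% of all genes, and in 0 of the 18 did the groups stand clear of each other, against 0.266%. SREBP2 drives these genes together, so the 18 values are not 18 independent observations.

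In the branch from acetyl-CoA to farnesyl diphosphate all 7 genes reported were lower, with a median log2 fold change of -0.82. Hmgcs1, the HMG-CoA synthase (chromosome 13, 119690379 to 119708260), had 400, 219, 843, 564 and 192 CPM in rosuvastatin libraries 1 to 5 and 291, 163, 371, 307 and 126 CPM in combination libraries 1 to 5. Rosuvastatin libraries 2 and 5 overlapped the combination group. Its log2 fold change was -0.82 ± 0.42 (SE). Idi1, the isomerase that supplies both isoprenoid building blocks, ran from 128 to 886 CPM with rosuvastatin and from 86.8 to 404 CPM with the combination, at -1.10 ± 0.54 (SE). Fdps, which joins these blocks into farnesyl diphosphate, was at -0.96 ± 0.50, the mevalonate diphosphate decarboxylase Mvd at -0.90 ± 0.54, the mevalonate kinase Mvk at -0.81 ± 0.42, the thiolase Acat2 at -0.52 ± 0.27 and the phosphomevalonate kinase Pmvk at -0.38 ± 0.32 (SE). Per transcript length, Hmgcs1 averaged 157 ± 121 TPM (SD, n = 5) with rosuvastatin, against 81.2 ± 36.3 TPM with the combination.

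From squalene to cholesterol all 11 genes reported were lower as well, with a median log2 fold change of -0.82. Sqle, the squalene epoxidase and a control point of the branch, had the largest fitted difference of the 18, -1.20 ± 0.61 (SE). Its rosuvastatin libraries 1 to 5 had 40.4, 17.7, 97.6, 56.3 and 11.2 CPM and its combination libraries 1 to 5 had 31.1, 8.20, 27.7, 24.1 and 6.64 CPM. Rosuvastatin libraries 3 and 4 were the highest and library 5 was low. Cyp51, the lanosterol demethylase, was at -1.02 ± 0.50, the lanosterol synthase Lss at -0.90 ± 0.44 and Msmo1, a sterol methyl oxidase, at -0.88 ± 0.45. Dhcr7, the last reductase of one route to cholesterol, was at -0.84 ± 0.40 (edgeR unadjusted p = 0.0480) and Nsdhl at -0.82 ± 0.36 (edgeR unadjusted p = 0.0341). The remaining members were Fdft1, the squalene synthase, at -0.67 ± 0.34, Hsd17b7 at -0.66 ± 0.35, Sc5d at -0.44 ± 0.23, Tm7sf2 at -0.44 ± 0.29 and the isomerase Ebp at -0.09 ± 0.20 (SE).

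The mean log2 CPM of the 18 genes shows how far the group difference rests on single libraries. It was 6.78, 5.78, 7.34, 6.66 and 5.17 in rosuvastatin libraries 1 to 5 and 6.31, 4.89, 6.12, 6.04 and 5.08 in combination libraries 1 to 5. Rosuvastatin libraries 1, 3 and 4 lay above every combination library, and rosuvastatin libraries 2 and 5 lay within the combination range. Vehicle libraries had 4.63 to 6.11 and GGOH libraries 4.56 to 5.59. Leaving out rosuvastatin library 3 took the median log2 fold change of the 18 genes to -0.42, and leaving out rosuvastatin library 5 took it to -1.04. With combination libraries 2 and 3 left out the median was -0.66, with 17 lower and Ebp at 0.11. GGOH against vehicle, measured in the other 10 libraries, gave a median of -0.25 with 15 of the 18 lower. The interaction had a median of -0.54, and 0 of the 18 genes reached an unadjusted p of 0.05 there, against 369 of all genes (2.89%).

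**Figure D2:**
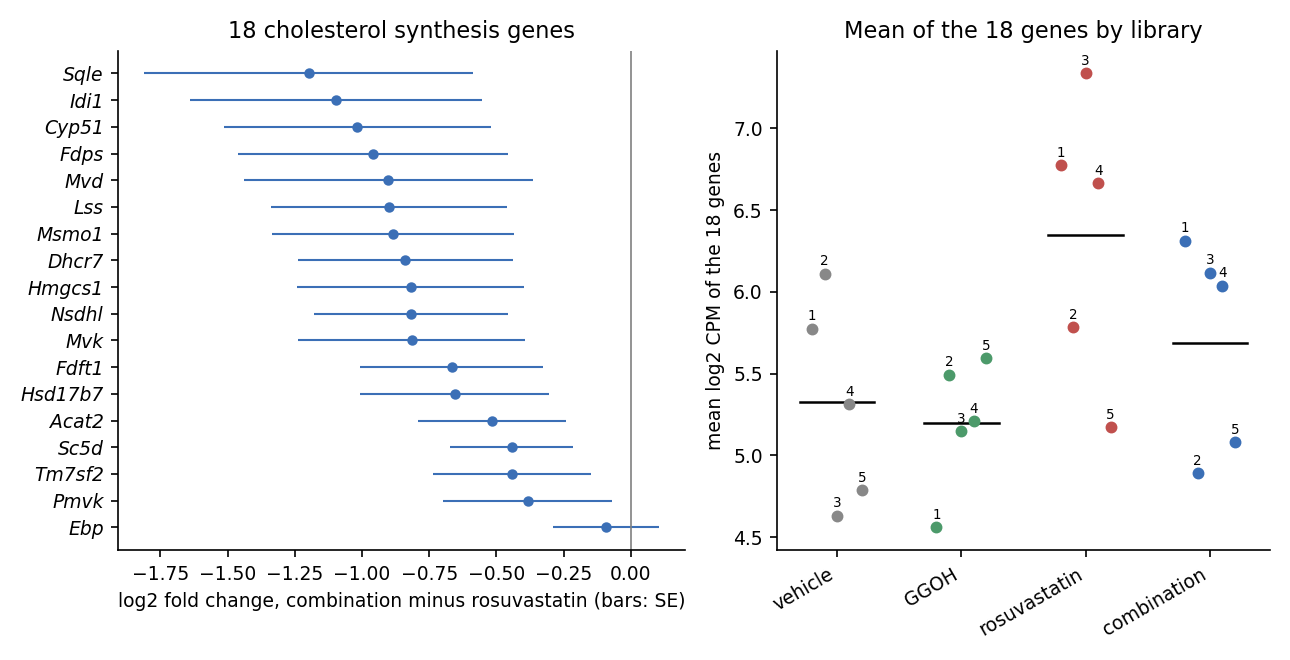
Left, fitted log2 fold change of the combination against rosuvastatin for the 18 cholesterol synthesis genes, with bars of 1 SE; right, mean log2 CPM of the same genes in each of the 20 libraries, with replicate numbers and group means as bars. All 18 points lie left of 0, from -1.20 for Sqle to -0.09 for Ebp, while rosuvastatin libraries 2 and 5, at 5.78 and 5.17, lie among the combination libraries.

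Promoter windows of 4 of these genes are given because the 18 genes had one direction in common. SREBP2 binds sterol elements close to the start site, usually with the factor NF-Y, which binds the letters CCAAT. RefSeq windows (GRCm38.p6) of 250 bases before the start were searched on both strands for TCACNCCAC (reverse GTGGNGTGA), a form of the sterol element, and for CCAAT (reverse ATTGG), and no match of one overlapped the other in the windows shown. The table held 15 of the 18 genes, without Fdft1, Fdps and Sqle. Of these 15, 14 had CCAAT, against 37.5% of 27025 genes in the table and 40.5% of the 9946 of them tested here. TCACNCCAC was in 1 of the 15, Hmgcs1, and in 1.22% of all genes. A match is a description of letters, not of binding. The 4 windows that overlap no annotated gene follow, 5′ to 3′, with matches in capitals. Hmgcs1 is at chr13:119690101-119690350 on the plus strand, Pmvk at chr3:89454291-89454540 on the plus strand, Ebp at chrX:8193513-8193762 on the minus strand and Sc5d at chr9:42264301-42264550 on the minus strand.
Hmgcs1: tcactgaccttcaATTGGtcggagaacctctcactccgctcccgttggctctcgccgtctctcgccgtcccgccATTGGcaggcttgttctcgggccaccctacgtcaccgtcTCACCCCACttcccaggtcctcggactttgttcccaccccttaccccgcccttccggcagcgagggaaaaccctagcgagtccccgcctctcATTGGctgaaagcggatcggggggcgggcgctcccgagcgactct
Pmvk: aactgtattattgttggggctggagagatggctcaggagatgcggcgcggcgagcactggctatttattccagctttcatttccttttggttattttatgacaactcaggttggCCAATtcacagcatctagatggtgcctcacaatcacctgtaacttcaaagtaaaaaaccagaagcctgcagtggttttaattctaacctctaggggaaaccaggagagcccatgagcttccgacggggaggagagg
Ebp: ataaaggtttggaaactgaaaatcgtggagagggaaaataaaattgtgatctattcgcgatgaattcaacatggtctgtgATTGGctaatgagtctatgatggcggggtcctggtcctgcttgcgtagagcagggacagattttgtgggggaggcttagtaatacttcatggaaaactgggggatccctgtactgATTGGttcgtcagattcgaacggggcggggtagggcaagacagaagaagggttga
Sc5d: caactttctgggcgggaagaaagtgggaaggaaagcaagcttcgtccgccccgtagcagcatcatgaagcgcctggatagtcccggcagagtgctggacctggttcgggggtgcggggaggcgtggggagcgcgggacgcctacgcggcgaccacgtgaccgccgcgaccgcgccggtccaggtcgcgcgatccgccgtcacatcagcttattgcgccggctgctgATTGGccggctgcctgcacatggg
Hmgcs1 held 3 matches to CCAAT and 1 to TCACNCCAC, Ebp held 2 to CCAAT, and Pmvk and Sc5d held 1 each.

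Genes of sterol uptake and of the control of SREBP2 were less uniform. Of 10 tested, 7 had a lower fitted value, at a median log2 fold change of -0.13. At an unadjusted p under 0.05 there were 0, against 1.69% of all genes. Insig1, which holds SREBP2 in the endoplasmic reticulum, was at -0.55 ± 0.32, the cholesterol carrier Stard4 at -0.36 ± 0.27 and the sterol-responsive Tmem97 at -0.36 ± 0.21 (SE). Srebf2, which encodes SREBP2, was at -0.08 ± 0.25 (SE), and its sign turned with the setting, between -0.35 and 0.04.

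The genes that make and use the geranylgeranyl group gave no clear difference. Of the 12 that make geranylgeranyl diphosphate, attach it to proteins or process the attached lipid, 7 had a lower fitted value, at a median log2 fold change of -0.03 and members between -0.24 and 0.17. Ggps1, the geranylgeranyl diphosphate synthase (chromosome 13, 14050659 to 14063488), had 14.9, 13.0, 8.96, 14.2 and 12.3 CPM in rosuvastatin libraries 1 to 5 and 16.9, 15.5, 11.3, 13.8 and 13.6 CPM in combination libraries 1 to 5. The groups overlapped, and its log2 fold change was 0.17 ± 0.20 (SE), or -0.09 on log2(TPM + 1). Fnta, the subunit shared by farnesyltransferase and one geranylgeranyl transferase, was at 0.09 ± 0.16 (SE). Among 14 genes of coenzyme Q and dolichol synthesis, which draw on the same isoprenoids, 9 were lower with a median of -0.04, and Coq6 was at 0.33 ± 0.20 (SE).

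Transcripts of small GTPases and of genes taken as their readouts had list medians below the 0.01 of all genes. Of all genes tested 47.4% had a lower fitted value. These transcript levels do not measure the lipid attached to the proteins or the activity of the GTPases. Of 10 small GTPase genes, 7 were lower with a median log2 fold change of -0.07. Cdc42 was at -0.19 ± 0.16 and Rhob, which rises in many cells under statins, at -0.05 ± 0.22 (SE). Rhob had 18.6 ± 4.60 CPM with rosuvastatin and 18.0 ± 7.52 CPM with the combination (SD, n = 5), and its sign turned with the setting, between -0.33 and 0.21. Of 14 tested targets of YAP and SRF, transcription factors that respond to the state of the cytoskeleton, 10 were lower with a median of -0.07. Ccn2 was at -0.81 ± 0.45 (SE) and rested on rosuvastatin library 5, which had 13.3 CPM where the other 4 had 1.97 to 5.50. Without that library it was at -0.25. Ajuba was at -0.59 ± 0.31 and Ccn1 at -0.22 ± 0.27 (SE). The 6 genes that statins are known to change in endothelium had a median of -0.21 with 4 lower, among them Thbd, which encodes thrombomodulin, at -0.49 ± 0.30 (SE).

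Ahr, the receptor for aryl hydrocarbons (chromosome 12, 35497974 to 35535038), had a lower mean with GGOH on both backgrounds, with no adjusted p under the threshold. Rosuvastatin libraries 1 to 5 had 14.7, 23.1, 18.2, 25.6 and 22.5 CPM and combination libraries 1 to 5 had 13.6, 18.2, 15.2, 14.0 and 13.5 CPM. Rosuvastatin library 1 lay inside the combination range, and rosuvastatin library 3 and combination library 2 both stood at 18.2 CPM. The log2 fold change was -0.48 ± 0.15 (SE, edgeR unadjusted p = 0.00352), between -0.61 and -0.40 over the settings. In the other 10 libraries Ahr was at 22.2 ± 2.54 CPM with vehicle and 14.9 ± 1.30 CPM with GGOH (SD, n = 5), a log2 fold change of -0.58 ± 0.15 (SE, edgeR unadjusted p = 0.000784). The interaction was 0.09 ± 0.21 (SE). The 7 tested genes of the AHR list had a median of 0.01 with 3 lower.

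Among genes of fat metabolism, the oxidation list had a slightly higher median, whose size turned on the setting, and synthesis had no common direction. Of 25 genes of oxidation and PPAR-alpha, the receptor that drives it, 19 had a higher fitted value with a median log2 fold change of 0.10. Of all genes tested 52.6% had a higher fitted value, with a median of 0.01. On log2(TPM + 1) the median of the oxidation list was 0.014, beside -0.04 for all genes. The number of its members with a lower value ran from 5 to 11 over the settings. Acaa1b, a thiolase of peroxisomal oxidation (chromosome 9, 119148023 to 119157093), had 742, 798, 686, 898 and 1025 CPM in rosuvastatin libraries 1 to 5 and 855, 1233, 1559, 1293 and 1340 CPM in combination libraries 1 to 5. Combination library 1 alone overlapped the rosuvastatin group. This gave a log2 fold change of 0.60 ± 0.21 (SE, edgeR unadjusted p = 0.0109), between 0.49 and 0.68 over the settings. Cyp4a14, a PPAR-alpha target that hydroxylates fatty acids, was at 0.31 ± 0.21 (SE), with 1127 ± 246 and 1397.5 ± 211 CPM (SD, n = 5).

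Of 19 genes of fatty acid and triglyceride synthesis, 10 were higher and 9 lower, with a median of 0.01. Acly, which makes cytosolic acetyl-CoA, was at -0.44 ± 0.19 (SE, edgeR unadjusted p = 0.0299), with 51.7 ± 16.7 CPM with rosuvastatin and 38.2 ± 3.40 CPM with the combination (SD, n = 5). Mlxipl, which encodes the glucose-sensing factor ChREBP, had 59.4, 136, 49.7, 105 and 81.8 CPM in rosuvastatin libraries 1 to 5 and 109, 235, 260, 64.8 and 74.0 CPM in combination libraries 1 to 5. Combination libraries 2 and 3, those with the large mitochondrial share, carried the difference of 0.78 ± 0.34 (SE), which was -0.07 without them. The 13 lipid droplet genes had a median of -0.02 with 7 lower. Of these Plin4, a coat protein, had 119 and 107 CPM in those libraries against 17.7 to 35.3 CPM in the other 3. Plin4 was at 0.88 ± 0.45 (SE), and -0.31 without them. The part of the mitochondrial share in these differences was not tested.

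Bile acid, efflux and glucose genes gave single members rather than group differences. Nr0b2, the repressor SHP that bile acids induce through FXR, had 8.28, 10.7, 5.16, 6.62 and 6.42 CPM in rosuvastatin libraries 1 to 5 and 11.6, 7.49, 9.76, 22.9 and 19.6 CPM in combination libraries 1 to 5. Combination libraries 4 and 5 were the highest, and combination libraries 2 and 3 lay below rosuvastatin library 2, at 0.95 ± 0.38 (SE, edgeR unadjusted p = 0.0198). Cyp7a1, the rate-limiting enzyme of bile acid synthesis, was at 0.23 ± 0.27 and Abcb11, the bile salt export pump, at 0.30 ± 0.18 (SE). The 14 genes of the bile acid list had a median of 0.02, and 8 were higher. Abca1, a cholesterol exporter driven by LXR, was at 0.21 ± 0.18 (SE), in a list of 11 whose median was 0.0025.

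Irs2, an adaptor of the insulin receptor, was at 0.62 ± 0.30 (SE, edgeR unadjusted p = 0.0466), with 4.62 ± 1.64 CPM with rosuvastatin and 7.15 ± 1.40 CPM with the combination (SD, n = 5). G6pc, the glucose-releasing phosphatase, had 85.7, 82.7, 86.5, 71.8 and 89.3 CPM in rosuvastatin libraries 1 to 5 and 115, 109, 132, 99.1 and 93.4 CPM in combination libraries 1 to 5. These values did not overlap, though the log2 fold change of 0.40 ± 0.21 (SE) had an edgeR unadjusted p of 0.0730. Pck1, of the same pathway, was at -0.27 ± 0.31 (SE). Over the 16 genes of this list 10 were higher, with a median of 0.11.

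Inflammation and acute phase genes were lower with the combination, and 1 rosuvastatin library accounted for the largest values. Of 21 tested, 16 had a lower fitted value, with a median log2 fold change of -0.37, which was -0.10 without rosuvastatin library 3. Lcn2, an iron-carrier-binding protein of the acute phase, had 27.7, 13.7, 294, 6.5 and 24.3 CPM in rosuvastatin libraries 1 to 5 and 20.8, 9.19, 12.1, 12.5 and 17.6 CPM in combination libraries 1 to 5. Apart from rosuvastatin library 3, the combination libraries lay within the range of the rosuvastatin libraries. Its log2 fold change was -2.34 ± 0.84 (SE, edgeR unadjusted p = 0.0111), and -0.33 without that library. The serum amyloid genes Saa1 and Saa2 stood at 1431 and 1047 CPM in the same library, against at most 191 and 78.8 CPM in the other rosuvastatin libraries. They were at -1.73 ± 0.92 and -2.22 ± 0.98 (SE), and at -0.16 and -0.15 without it. Reads of these close copies are hard to tell apart. Orm2, an acute phase glycoprotein, was at -1.02 ± 0.55 (SE), and -0.27 without that library.

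Fibrosis and matrix genes were lower in 18 of 21 cases, with a median log2 fold change of -0.29 that was 0.03 without rosuvastatin library 5 and -0.59 without combination library 5. Spp1, osteopontin (chromosome 5, 104435118 to 104441050), had 51.2, 30.4, 155, 27.7 and 84.5 CPM in rosuvastatin libraries 1 to 5 and 28.8, 20.9, 16.3, 37.2 and 39.3 CPM in combination libraries 1 to 5. Rosuvastatin libraries 3 and 5 were the highest and libraries 2 and 4 lay inside the combination range. Its fitted change on the log2 scale was -1.29 ± 0.39 (SE, edgeR unadjusted p = 0.00367), and -0.77 without rosuvastatin library 3. GGOH against vehicle gave 0.10 ± 0.39 for Spp1, and the interaction was -1.39 ± 0.55 (SE, edgeR unadjusted p = 0.0201). Lum, a proteoglycan of collagen fibres, was at -0.60 ± 0.28 (SE, edgeR unadjusted p = 0.0418), and -0.24 with combination libraries 2 and 3 left out. Timp2, an inhibitor of matrix proteases, was at -0.49 ± 0.30 (SE).

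Markers of other liver cells stood beside these genes. Spp1 is also made by bile duct cells and by lipid-associated macrophages, and it is in both marker lists. All 8 markers of lipid-associated macrophages had a lower fitted value, with a median of -0.33, which was -0.09 without rosuvastatin library 3 and -0.78 without combination library 5. They summed to 82.6 to 279 CPM with rosuvastatin and 70.9 to 164 CPM with the combination. Of 5 tested markers of cholangiocytes, the cells of bile ducts, 4 were lower with a median of -0.80, which was -1.45 without combination library 5 and -0.13 on log2(TPM + 1), and the list of 7 summed to 32.6 to 166 CPM and 19.3 to 45.4 CPM. Among these Epcam was at -1.45 ± 0.64 (SE, edgeR unadjusted p = 0.0342), at 1.70 ± 1.21 and 0.586 ± 0.514 CPM (SD, n = 5), and Krt19 at -0.80 ± 0.58 (SE). Krt19 was at -0.16 without rosuvastatin library 3, -1.46 without combination library 5 and -0.12 on log2(TPM + 0.1). All 8 Kupffer cell markers were lower with a median of -0.19, which turned to 0.04 without rosuvastatin library 1 and was -0.38 without rosuvastatin library 5, summing to 212 to 493 CPM and 185 to 313 CPM. Adgre1 was at -0.39 ± 0.31, Trem2 at -0.52 ± 0.37 and Cd63 at -0.61 ± 0.42 (SE). Without rosuvastatin library 5 Trem2 and Cd63 were at -0.22 and -0.29, without combination library 5 at -0.92 and -0.96, and Adgre1 was at -0.22 without rosuvastatin library 1. Stellate cell markers were lower in 8 of 9 cases with a median of -0.08, summing to 403 to 576 CPM and 353 to 547 CPM, with Dcn at -0.29 ± 0.21 (SE). Of the neutrophil list of 8, 4 were tested with a median of -0.21, which turned to 0.05 without rosuvastatin library 1 and was -0.63 without combination library 5, summing to 8.74 to 18.9 CPM and 6.14 to 20.4 CPM, and Ly6g was at 0 in both groups. Medians of the other cell lists were -0.01 for 8 hepatocyte, 0.10 for 8 sinusoidal endothelium, -0.21 for 4 monocyte and dendritic cell, -0.01 for 8 T and NK cell, 0.46 for 5 B and plasma cell, -0.16 for 4 mesothelium and -0.01 for 6 erythroid markers. The part of cell makeup in the matrix and inflammation values was not tested. Markers of tissues that could be cut with liver summed, with rosuvastatin and with the combination, to 38.5 to 69.9 and 17.1 to 63.8 CPM for fat cells, 11.6 to 19.7 and 10.8 to 15.6 CPM for pancreatic acinar cells, and 0.567 to 0.842 and 0.188 to 1.01 CPM for muscle. Of the pancreatic acinar markers Cpa1, Prss1, Pnlip, Amy2a5 and Ctrb1 were at 0 in both groups, as was the fat cell marker Lep and the muscle markers Myh4 and Tnnt3, while Adipoq and Retn were at 0 with the combination. Medians were -0.09 over the 2 fat cell markers tested, and the 1 acinar and 1 muscle marker tested were at -0.27 and -0.58.

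**Figure D3:**
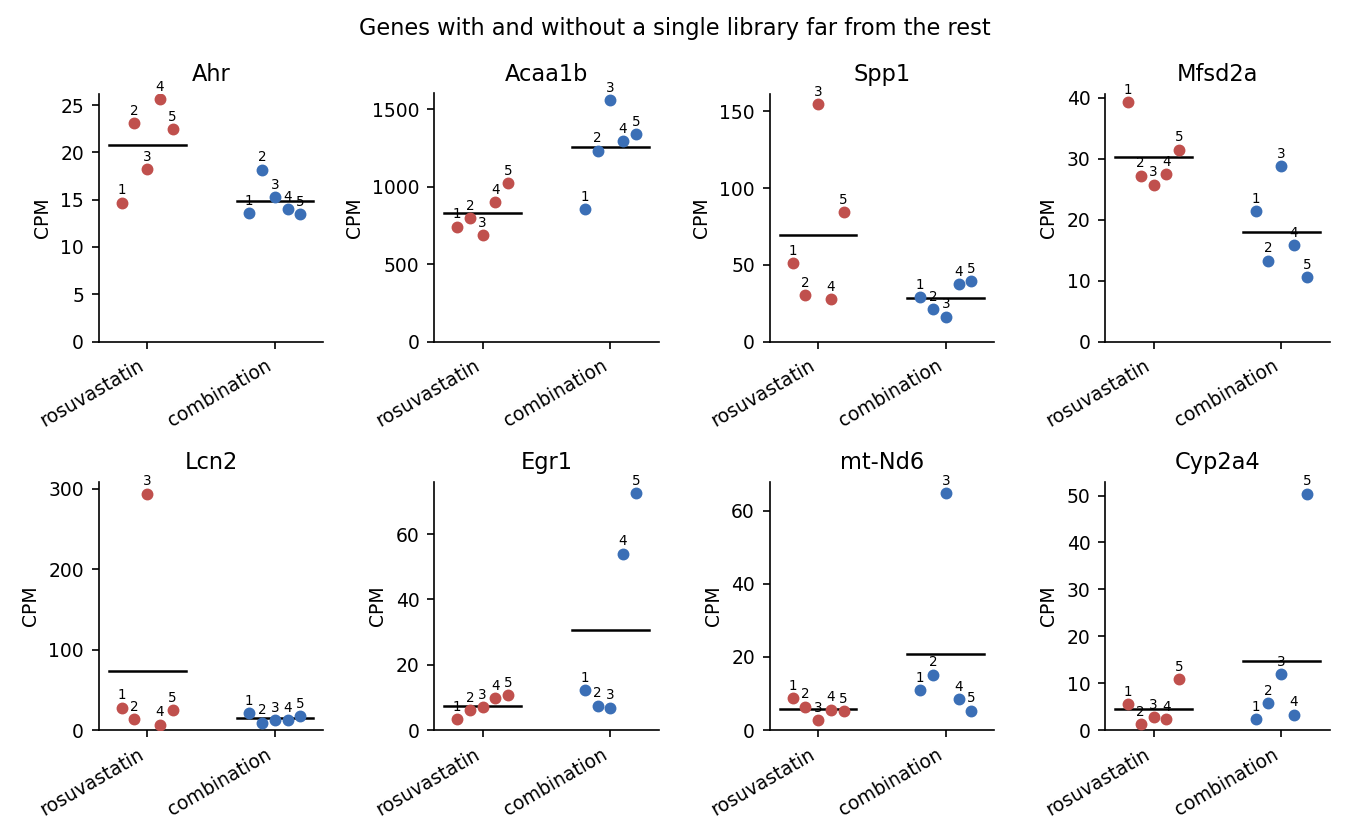
CPM (vertical axes, linear, from 0) of 8 genes in the 5 rosuvastatin and 5 combination libraries, numbered by replicate, with group means as bars. In the upper row the difference is spread over several libraries, though Spp1 reaches 155 CPM in rosuvastatin library 3; in the lower row 1 or 2 libraries carry it, as Lcn2 at 294 CPM in rosuvastatin library 3 and mt-Nd6 at 64.8 CPM in combination library 3.

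Immediate early genes, which respond within minutes to growth signals and to handling of tissue, were higher in 11 of 13 cases, with a median log2 fold change of 0.43. Egr1, a zinc finger factor of this class, had 3.37, 6.13, 6.97, 9.70 and 10.7 CPM in rosuvastatin libraries 1 to 5 and 12.1, 7.49, 6.87, 54.0 and 72.5 CPM in combination libraries 1 to 5. Combination libraries 4 and 5 carried its log2 fold change of 2.05 ± 0.69 (SE, edgeR unadjusted p = 0.00708). Fos, with 2.44 and 4.27 CPM in those libraries, was at 1.34 ± 0.66, Ier2 at 0.71 ± 0.38 and Nr4a1 at 0.80 ± 0.43 (SE). Without combination library 5 the list median was 0.18, with Fos at 0.59 and Ier2 at 0.13. Glucocorticoid targets and metallothioneins were lower in 8 of 10 cases with a median of -0.22. Tsc22d3, a classical glucocorticoid target, was at -0.49 ± 0.20 (SE, edgeR unadjusted p = 0.0202), with 44.4 ± 11.4 and 31.6 ± 8.24 CPM (SD, n = 5), and the clock gene Per1 at -1.01 ± 0.56 (SE). Lcn2 is counted in that list too.

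The transcripts encoded in the mitochondrial genome were higher in 13 of 13 cases, with a median log2 fold change of 0.52. Combination libraries 2 and 3 carried the difference, since the median was 0.02 without them. Their 32317 and 29291 CPM of mt-Cytb, a subunit of a respiratory complex, were the highest of the 10 libraries, and it was at 0.70 ± 0.33 (SE), or 0.10 without them. The 18 respiratory chain genes encoded in the nucleus had a median of 0.0018. Among the mitochondrial transcripts mt-Nd6 was at 1.86 ± 0.59 (SE, edgeR unadjusted p = 0.00482), with 64.8 CPM in combination library 3 and 2.78 to 15.2 CPM in the other 9, and at 0.80 without that library. It lies on the other strand from most mitochondrial genes, and the sources used here do not state whether the libraries kept strand.

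Other groups lay close to the background or turned with single libraries. Targets of NRF2, the antioxidant factor, had a median log2 fold change of 0.01, with 8 of 15 higher, and 0.22 without rosuvastatin library 5. Genes of endoplasmic reticulum and integrated stress had -0.16 with 10 of 15 lower, and 0.14 without rosuvastatin library 3, and among them Chac1 was at -0.86 ± 0.63 (SE), or -0.10 without that library. Medians were 0.01 for 18 interferon genes, -0.12 for 16 cell cycle genes, 0.06 for 17 clock genes and 0.06 for 15 hepatokines. Pericentral and periportal hepatocyte genes, 12 of each, had -0.0010 and -0.0099, and Hal, a periportal enzyme, was at 0.40 ± 0.27 (SE), or 0.07 without combination library 5. Of 14 sex-biased and growth hormone genes 9 were lower with a median of -0.07. Cyp2a4, a female-biased P450, was at 1.70 ± 0.70 (SE) through 50.4 CPM in combination library 5, and at 0.29 without it. Socs2, a target of growth hormone signalling, was at 0.95 ± 0.44 (SE), with 19.7 CPM in combination library 1 and 2.52 to 11.8 CPM in the other 4, and at 0.50 without that library.

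**Figure D4:**
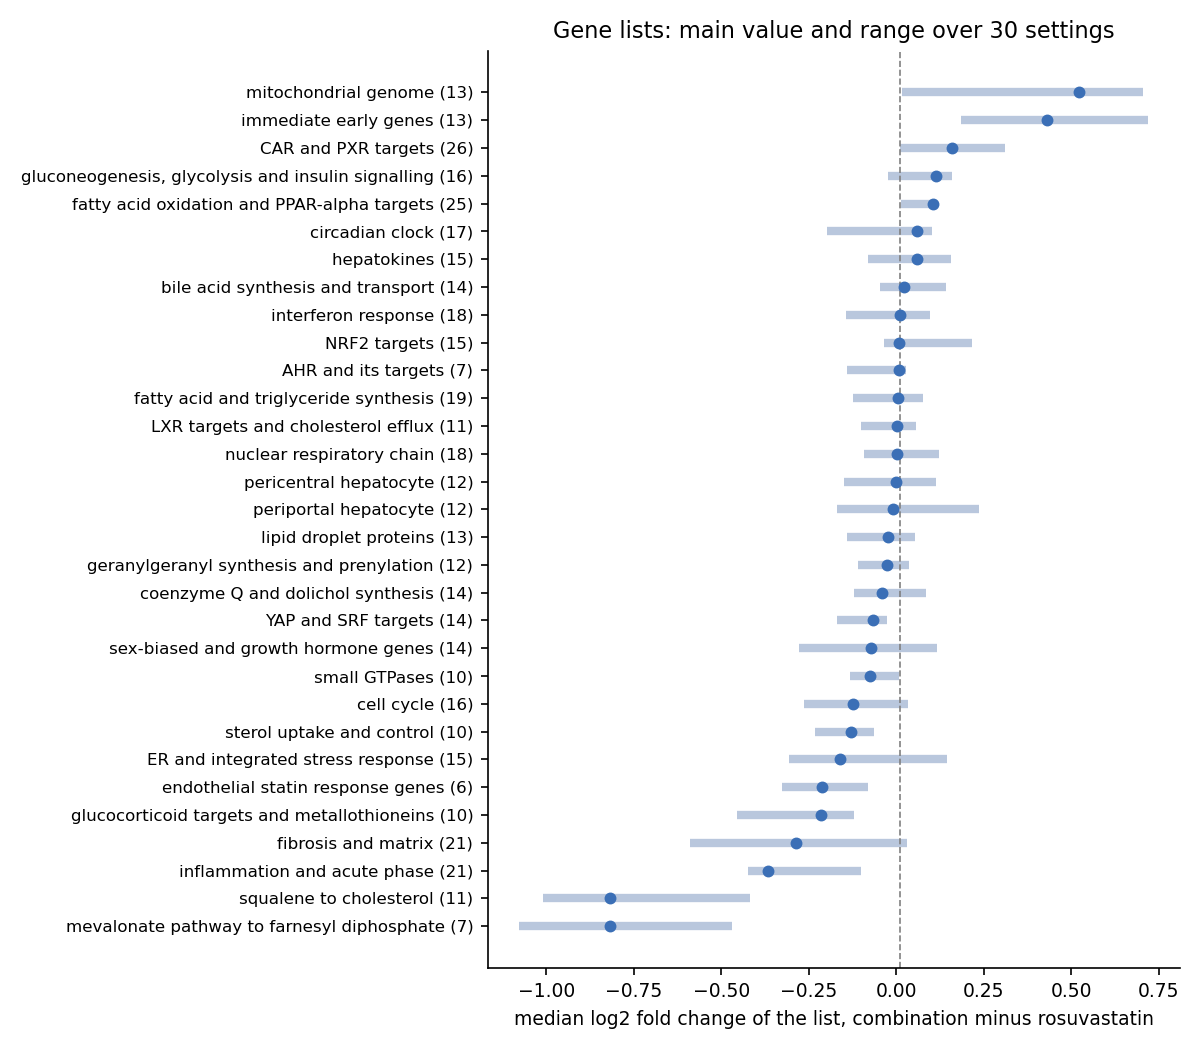
Median log2 fold change of the combination against rosuvastatin (horizontal axis) for 31 gene lists, with the number of genes tested in brackets; points are the values reported and bars the range over 30 other settings, and the dashed line is the median of all genes, 0.01. The 2 cholesterol synthesis lists lie lowest, both at -0.82, and the mitochondrial genome highest, at 0.52 with a range that reaches 0.02.

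Among genes outside these lists with the smallest p-values, those higher with the combination were mostly low in level. Shroom1, an actin-binding protein, had 7.58, 10.2, 6.29, 9.70 and 9.13 CPM in rosuvastatin libraries 1 to 5 and 10.9, 15.9, 15.7, 10.3 and 11.1 CPM in combination libraries 1 to 5. The groups did not overlap, and the log2 fold change was 0.57 ± 0.21 (SE, edgeR unadjusted p = 0.0126). The ubiquitin ligase parts Fbxl12, Trim65 and Trim11 were at 0.72 ± 0.24, 0.63 ± 0.21 and 0.60 ± 0.22 (SE). Trim11 and Trim65 were at 0.25 and 0.31 with combination libraries 2 and 3 left out. The inositol phosphate kinase Itpkc was at 0.69 ± 0.23, the DNA helicase Helq at 0.66 ± 0.23, Ankzf1 at 0.49 ± 0.16, the splicing kinase Prpf4b at 0.55 ± 0.20 and Albfm1, of the albumin family, at 0.36 ± 0.12 (SE). With combination libraries 2 and 3 left out, Prpf4b was at 0.11, Ankzf1 at 0.28 and Shroom1 at 0.32, their lowest values over the settings. Albfm1 was then at 0.42, its highest. Olfr523, an odorant receptor gene, was at 1.29 ± 0.46 (SE) through 6.84 and 8.58 CPM in combination libraries 2 and 3, and at 0.26 without them. Rgs19 and E4f1 did not overlap between groups in CPM, at 0.62 ± 0.27 and 0.59 ± 0.25 (SE). E4f1 was at 0.34 with combination libraries 2 and 3 left out. On TPM the means of Rgs19 were 2.94 ± 1.44 with rosuvastatin and 2.99 ± 0.630 with the combination (SD, n = 5), and its log2 fold change was 0.08 on log2(TPM + 1), where that of E4f1 was 0.46.

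Of those lower with the combination, Mfsd2a, a transporter of lysophospholipids that carry docosahexaenoic acid, kept a similar value over the settings. It had 39.3, 27.2, 25.7, 27.5 and 31.5 CPM in rosuvastatin libraries 1 to 5 and 21.4, 13.3, 28.8, 15.8 and 10.6 CPM in combination libraries 1 to 5. Combination library 3 alone overlapped the rosuvastatin group, and the log2 fold change was -0.76 ± 0.28 (SE, edgeR unadjusted p = 0.0138), between -0.99 and -0.64 over the settings. Ly9, a receptor of lymphocytes, had 2.18 to 3.35 CPM with rosuvastatin and 1.07 to 2.11 CPM with the combination, without overlap, at -0.75 ± 0.29 (SE). Its interaction was -1.39 ± 0.41 (SE, edgeR unadjusted p = 0.00279). Sowahb was at -0.76 ± 0.26 (SE), also without overlap, as were Gvin2 at -0.68 ± 0.41, Gnaz at -0.54 ± 0.36 and Mfsd9 at -0.45 ± 0.19 (SE). Ptk7, a receptor of the WNT pathway present only at trace level, did not overlap either, at 0.646 ± 0.233 and 0.164 ± 0.112 CPM (SD, n = 5) and a log2 fold change of -1.86 ± 0.54 (SE, edgeR unadjusted p = 0.00246).

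Cib3 and the matrix protein Smoc2 were at -1.70 ± 0.55 and -1.27 ± 0.45 (SE), each with its highest value in rosuvastatin library 3, 19.8 and 30.6 CPM, and were at -0.998 and -0.70 without it. Grip2 was the most abundant of this group, with 2525 ± 786 CPM with rosuvastatin and 1350 ± 258 CPM with the combination (SD, n = 5), at -0.90 ± 0.35 (SE). Cyclin F (Ccnf) was at -0.67 ± 0.24, the CTP synthase Ctps at -0.78 ± 0.30, Pdzk1ip1 at -0.99 ± 0.39, DPCD at -0.51 ± 0.20 and Sec23a, of the coat of secretory vesicles, at -0.28 ± 0.11 (SE).

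Whether GGOH acted differently under the statin was tested directly as the interaction of the compounds. By edgeR, 0 of 12789 genes passed, with a smallest Benjamini-Hochberg adjusted p of 0.999, and an unadjusted p under 0.05 was reached by 369 (2.89%). With DESeq2 and either limma fit the number called was 0 too. GGOH against vehicle called 0 genes as well, with 366 at an unadjusted p under 0.05. For Cyp2b10, Cyp2c29 and Ahr the 2 responses to GGOH had the same sign, in libraries that were not shared, though in 1 model. For Spp1 and Ly9 the fitted signs were opposite, though the value of Spp1 for GGOH against vehicle was smaller than its SE. These genes were picked with the values known, and the share of all genes with the same sign was not computed. Over the lists with at least 4 genes tested, the interaction median lay beyond 0.5 in size, a bound set after the values were seen, in 7. It was -0.95 for cholangiocyte markers, -0.90 for neutrophil, -0.70 for lipid-associated macrophage, -0.56 for Kupffer cell and -0.54 for mesothelium markers, -0.58 for the genes from acetyl-CoA to farnesyl diphosphate and 0.72 for the mitochondrial genome. In that order GGOH against vehicle gave these lists medians of 0.10, 0.66, 0.38, 0.33, 0.18, -0.24 and -0.19. The interaction medians of these lists were not recomputed over the settings. Cholangiocyte markers share Spp1 with lipid-associated macrophage markers and Krt19 with mesothelium markers. Mesothelium markers summed to 0.408 to 5.92 CPM with rosuvastatin and 1.37 to 6.09 CPM with the combination. For the mitochondrial genome, combination libraries 2 and 3 carried the difference from rosuvastatin.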

How the data were processed

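Poly(A) RNA of 20 mouse liver libraries was sequenced in read pairs of 100 bases, per the labels' protocols. The submitters' processing notes name the tools bcl2fastq 2.19, kallisto 0.44.0 and DESeq2 and the build GRCm38 (mm10), per the labels; no version or role of DESeq2 and no strand setting is given in the sources used here. The authors deposited estimated counts per gene, in whole numbers, and TPM per gene, which the authors scaled for transcript length and depth. Of 34934 entries 1 has no gene name and took 0.00801 to 0.0157% of counts; it was left out. kallisto divides reads among similar transcripts, so values of close paralogs are uncertain.

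Counts were tested by quasi-likelihood in edgeR 4.0.16 (R 4.3.3), after TMM normalisation and the filter on low counts that edgeR sets from the groups, which left 12789 genes, in 1 model of group means over 20 libraries, with Benjamini-Hochberg adjustment over all genes and a threshold of 0.05. An SE is the fold change divided by the root of its F. Between libraries the common coefficient of biological variation was 0.300. Fold changes are log2 of the combination over rosuvastatin; the interaction is that value minus the log2 fold change of GGOH over vehicle. Counts were also simulated for the combination against rosuvastatin over the same 12789 genes, with 200 genes changed. The test recovered 52% of 2-fold and 94% of 4-fold changes, with 6 false calls. Genes were drawn independently, without libraries that deviate as a whole, and many changed genes ease the Benjamini-Hochberg adjustment. The recovered shares therefore do not carry over to a comparison in which few genes change. CPM values use TMM library sizes. Gene positions are from GENCODE M21 and promoter windows from RefSeq.

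Alternatives were RLE size factors, DESeq2 1.42.0, no filter, a filter at 1 CPM in 5 libraries, only the 10 libraries compared, the replicate number as a block, limma 3.58.1 on log2(TPM + 1) and log2(TPM + 0.1), each library left out, and combination libraries 2 and 3 left out. Leaving out mitochondrial entries was added after seeing the data.

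The comparison, the 31 gene lists, the 15 marker lists and the rule for named genes were chosen with earlier results of these data known, Cyp2b10 and the cholesterol genes included. The rule named a set of sterol, isoprenoid and xenobiotic genes, the 15 smallest p-values in each direction and the 5 largest changes without overlap in each direction (average log2 CPM of at least 1, assigned names), and up to 4 members of each list. The 18 cholesterol synthesis genes are named as 1 list. Some genes of sterol synthesis and uptake are not reported here and are in no list.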

Additional observations from a re-analysis of the deposited data

Results flagged for a closer look

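In 8 of 202 groups of 5 values, the highest or lowest library stood far from the other 4 by Dixon's test, against 10.1 that chance would give. Combination library 3 had a total of 8548120 estimated counts, below the 15927053 or more of the other 4, and 64.8 CPM of mt-Nd6. Rosuvastatin library 3 had 294 CPM of Lcn2, 1.93 CPM of E4f1, lower than in the other 4, and a mean log2 CPM of 5.36 over the endoplasmic reticulum and integrated stress genes. Rosuvastatin library 5 had 12.1 CPM of Cyp2b13, a mean log2 CPM of 6.05 over the NRF2 targets and one of 5.69 over the sex-biased and growth hormone genes.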

How the results depend on the processing

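Depth, the spread between libraries and combination libraries 2 and 3, with their large mitochondrial share, limit these results. Of 3294 values recomputed for 110 named genes over 30 settings, 3269 kept their direction and 25 reversed, in 10 genes. Leaving out 1 of the 10 libraries compared moved the value by over 1.5 times in 64 of the 110 genes, and rosuvastatin library 3 did so in 37. The number of genes called was 0, and 1 (Cyp2b10) with DESeq2, with no low-count filter and with limma on log2(TPM + 1); leaving out each library in turn gave 0 to 1. The interaction called 0 genes in every setting run. The median of the 18 cholesterol genes kept its sign in all 30 settings, between -1.04 and -0.42.

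Over all genes tested, the replicate numbers were not shown to pair the libraries. The correlations of same-numbered deviations were 0.404, 0.285, 0.102, -0.124 and 0.0702. Of the 5 rosuvastatin libraries, 2 were most like the combination library of their own number. The mean log2 CPM of the cholesterol synthesis genes was lower with the combination at every replicate number. That is a description by label and not a paired comparison, since the numbers were not shown to mark pairs. Whether the numbers mark pairs cannot be told from these values. With the replicate block 0 genes passed, Cyp2b10 was at 2.99 (edgeR adjusted p = 0.513), the cholesterol median was -0.79 and Cyp2b13 turned to 0.13.

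On log2(TPM + 1), Ggps1 was at -0.086, Cyp2b13 at 0.088 and Cyp3a11 at -0.015; on log2(TPM + 0.1), Ggps1 was at -0.096, Cyp2b13 at 0.45 and Cyp3a11 at -0.015. With combination libraries 2 and 3 left out, Rhob was at 0.21, Cyp2b9 at -0.083, Nr1i3 at -0.0043, Ebp at 0.11, Mlxipl at -0.067 and Plin4 at -0.31. Leaving out 1 library gave ranges that crossed 0 for Cyp2b13 (-1.35 to 2.14), Cyp3a11 (-0.081 to 0.17), Rhob (-0.33 to 0.077) and Srebf2 (-0.26 to 0.040). The cause of these reversals was not tested.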
